A study of Rattus norvegicus with 8 samples.

Results

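The circadian clock genes Per1, Per2, Clock, Bmal1, Nr1d1, Nr1d2, Dbp, Tef, Nfil3 and Bhlhe40 were followed in rat semicircular canal duct (SCCD) epithelium with and without dexamethasone, a synthetic glucocorticoid. Members were taken by name: every probe set whose gene symbol or synonym in the array annotation was 1 of these 10 genes (Bmal1 is also named Arntl). They make up 10 of the 10411 genes named on the array and 14 of the 15866 probe sets that are not controls, with 1 probe set for 8 genes and 3 each for Clock and Nr1d2. Of the 8 genes bright enough on average to be tested, Per1 and Nfil3 rose with dexamethasone and none fell by the test used. Per1 was bright enough through its dexamethasone arrays and Dbp through its control arrays. Nr1d1 and Tef were too dim to be tested.

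The cultures were primary SCCD cells of neonatal Wistar rats grown on permeable supports, either untreated (control, 4 arrays) or given 100 nM dexamethasone (4 arrays). No genetic change was described for either group. The length of exposure before the array samples were taken, the hour of the day at harvest, and whether the samples came from separate dissections were not given in the sources used here, so the tests reflect how far these samples spread, which may be technical. Such cultures can hold more than 1 type of cell, and in bulk RNA fewer cells of a type and less RNA per cell cannot be told apart.

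In most mammalian cells the clock is a loop of transcription and repression. The proteins CLOCK and BMAL1 pair and bind E-box sequences, where they turn on the period and cryptochrome genes, whose products return to block them. REV-ERB proteins (Nr1d1 and Nr1d2) repress Bmal1, and DBP and TEF compete with the repressor NFIL3 for D-box sequences. Glucocorticoids are known to reset clocks in peripheral tissues, and Per1 is a known target of the glucocorticoid receptor.

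Values are signals of single probe sets in arbitrary units, with each array rescaled to a trimmed mean of 500 (2% left out at each end), because the deposited trimmed mean was 500.1 on replicates 1 and 2 of both groups and 202 to 336 on replicates 3 and 4. A signal of 1 probe set cannot be set against that of another, so only changes are compared between genes. Log2 fold changes (dexamethasone minus control) were tested with limma over the 10368 probe sets whose signal averaged 100 or more, and a probe set was called with an adjusted p under 0.05 (Benjamini-Hochberg). By that rule 195 probe sets (1.88%) were higher and 84 (0.810%) lower, against 34 and 4 with the signals as deposited, where the median change of all probe sets was 0.16 higher. As a reference for weak signals, the 95th percentile of 45 probe sets of 43 genes active in other tissues was 152 to 263 over the arrays; it is called the level of silent genes here. The treatment itself was visible in 7 of 8 tested glucocorticoid-induced genes, which rose, with Sgk1, Fkbp5 and Tsc22d3 at log2 changes of 3.19, 2.14 and 2.16. Nr3c1, the glucocorticoid receptor, had a change of -0.20 (adjusted p = 0.533).

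Of the 14 clock gene probe sets, 10 (of 8 genes) passed the filter and were tested, of which 2 were called higher, beside 1.88% of all probe sets tested. No clock gene probe set was called lower, beside 0.810% of all, while 4 had an unadjusted p under 0.05 against 16.1% of all. Of these 4, Per1 passed the filter only through its dexamethasone arrays (means of 72.7 in control and 224 with dexamethasone). Dbp passed it only through its control arrays (156 and 87.9). The counts therefore depend in part on the filter. The 2 called, Per1 and Nfil3, were also the only tested clock probe sets whose 2 groups did not overlap, and both were higher, beside 5.57% of all probe sets higher and 5.46% lower without overlap. The median log2 change of the 10 was 0.15 with 6 above 0, and over all probe sets tested it was -0.02 with 4762 of 10368 above 0. Nr1d1, Tef, 1 Clock probe set and 1 Nr1d2 probe set were under the filter, and their changes come from a fit over all probe sets.

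**Figure D1:**
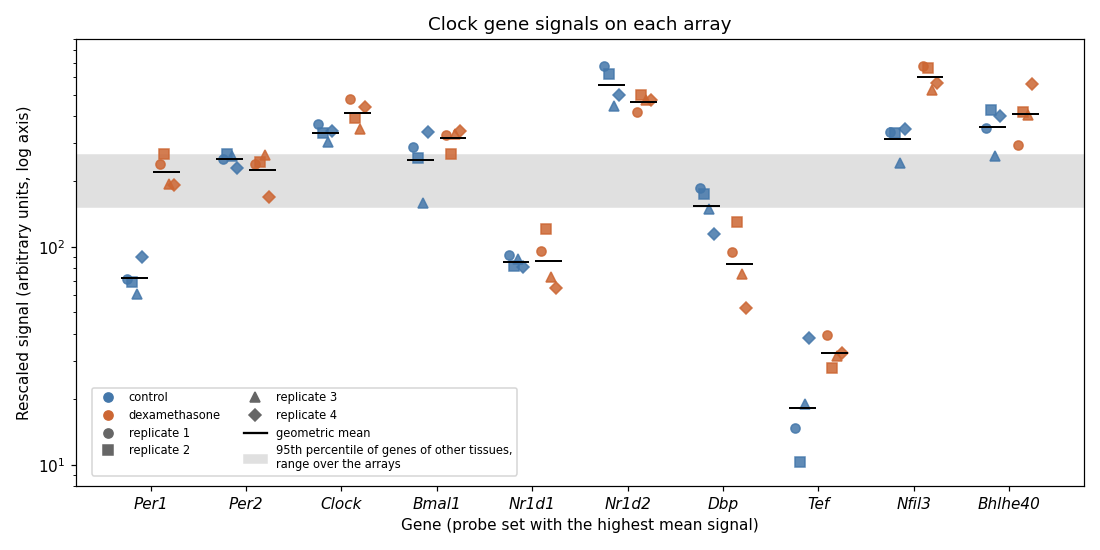
Rescaled signals (arbitrary units, log axis) of the brightest probe set of each clock gene, with blue points for control and orange points for dexamethasone, marker shape for replicate, and a bar at the geometric mean of 4 arrays. The grey band is the range over the arrays of the level of silent genes, 152 to 263; Per1 in control lies under it, at 60.9 to 89.5, and Nfil3 with dexamethasone lies above it, at 523 to 675.

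Per1 encodes a period protein, a repressor of CLOCK and BMAL1. Its probe set (1374855_at) gave signals of 71.2, 69.3, 60.9 and 89.5 on control replicates 1 to 4, and 241, 267, 194 and 193 with dexamethasone. Every dexamethasone array was above every control array, and the lower treated arrays were replicates 3 and 4. The means were 72.7 ± 12.0 (SD, n = 4) and 224 ± 36.7 (SD, n = 4), a rise of 3.07-fold with a 95% confidence interval of 2.25 to 4.20. On the log2 scale this was 1.62 (SE 0.21, adjusted p = 0.00128 from limma), the 40th largest change in size of all probe sets tested. An exact permutation test gave a two-sided p of 0.0286, below which 4 arrays against 4 cannot go. Per1 was above the level of silent genes on no control array and on 3 of 4 dexamethasone arrays, and its control signals lay among those of silent genes. With the control arrays alone raised to that level, the change was 0.22, or 1.16-fold. Raised instead to the median of the silent genes, 41.5 to 65.9 over the control arrays, it stayed at 1.62. Because the control mean was under the filter of 100, Per1 was tested through its dexamethasone arrays, and in a fit with no filter its adjusted p was 0.0136.

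Nfil3 encodes a basic leucine zipper repressor that binds D-box sequences. The signals of 1368488_at were 338, 332, 242 and 345 in control and 675, 663, 523 and 562 with dexamethasone. The groups did not overlap, and in both the lowest array was replicate 3. The means were 314 ± 48.6 and 606 ± 75.0 (SD, n = 4 each), a rise of 1.94-fold (95% confidence interval 1.54 to 2.43), or 0.95 on the log2 scale (SE 0.15, adjusted p = 0.00518 from limma; exact permutation test, two-sided p = 0.0286). Nfil3 was above the level of silent genes on 3 control arrays and all 4 dexamethasone arrays; Per1 had reached it on no control array. Raising the control arrays to that level left a change of 0.92.

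Both rises kept their direction in every alternative tried, from 1.15 to 1.85 for Per1 and from 0.71 to 1.12 for Nfil3, and Per1 stayed called in 18 of 21 and Nfil3 in 19 of 22. Neither was called with the signals as deposited (Per1 1.78, adjusted p = 0.0881; Nfil3 1.12, adjusted p = 0.761), in replicates 3 and 4 alone (1.39, adjusted p = 0.199; 0.91, adjusted p = 0.237), or with the beta-actin ratio as a covariate (1.51, adjusted p = 0.0536; 0.71, adjusted p = 0.173; limma). That ratio of the 3' to the 5' probe set ran from 8.10 to 13.7 in control and from 6.17 to 8.07 after treatment, and its groups did not overlap. The same ratio of Gapdh overlapped, at 2.10 to 3.79 and 2.14 to 3.18. Whether these ratios reflect RNA integrity or the 2 rounds of in vitro transcription was not tested. In replicates 1 and 2 alone Per1 changed by 1.85 and Nfil3 by 1.00 (adjusted p = 0.00465 and 0.00434, limma). Leaving out any 1 array left both called, with Per1 between 1.53 and 1.72 and Nfil3 between 0.83 and 1.02.

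**Figure D2:**
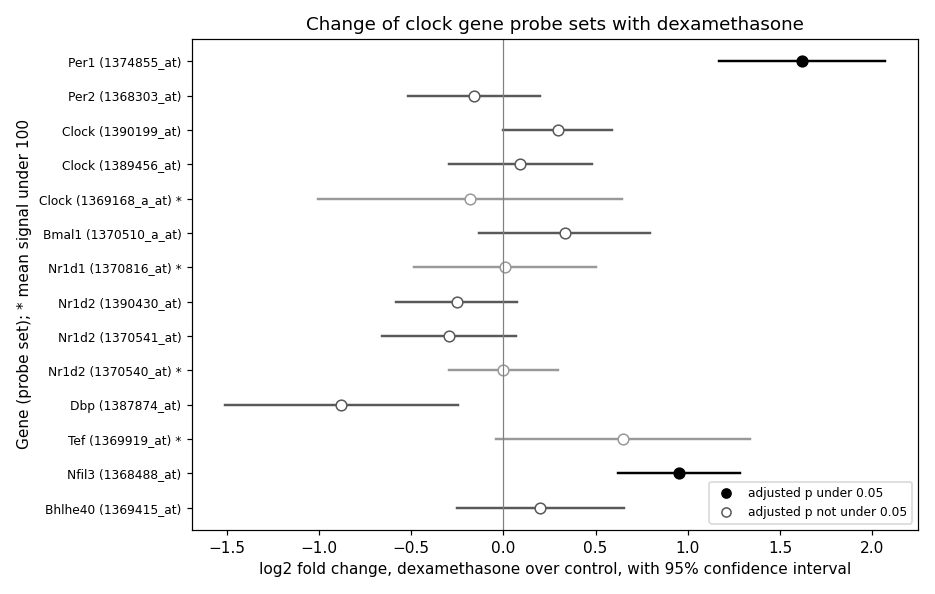
Log2 fold change of each clock gene probe set (dexamethasone over control) with its 95% confidence interval from limma, filled where the adjusted p was under 0.05. Per1 (1.62) and Nfil3 (0.95) are the filled points, and the unadjusted intervals of Dbp (-0.88) and, barely, Clock 1390199_at (0.30) also lie apart from 0; stars mark probe sets under the filter.

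The promoter windows of the 2 genes that rose are shown because they were searched for the glucocorticoid response element and the clock boxes. RefSeq promoter windows on GRCr8 (250 bases before to 50 after a start) were matched for all 10 genes, in 12 windows, and a gene can have further starts that were not analysed here.
Per1 promoter window, chr10:54304126-54304425, plus strand: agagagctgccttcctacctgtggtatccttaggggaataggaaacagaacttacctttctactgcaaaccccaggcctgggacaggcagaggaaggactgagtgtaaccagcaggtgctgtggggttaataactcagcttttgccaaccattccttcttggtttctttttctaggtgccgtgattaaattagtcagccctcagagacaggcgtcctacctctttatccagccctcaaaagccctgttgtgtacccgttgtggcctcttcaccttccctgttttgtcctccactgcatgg
Nfil3 promoter window, chr17:12432126-12432425, plus strand: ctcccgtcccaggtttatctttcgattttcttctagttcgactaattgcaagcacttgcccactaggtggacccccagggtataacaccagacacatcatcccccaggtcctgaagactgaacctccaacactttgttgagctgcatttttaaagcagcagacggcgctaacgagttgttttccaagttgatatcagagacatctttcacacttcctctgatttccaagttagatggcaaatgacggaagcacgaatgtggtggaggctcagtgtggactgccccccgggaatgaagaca
Neither window held the glucocorticoid response element (GNACA and TGTNC with 3 bases between them, either strand), its shorter form AGAACA, or any of the clock boxes searched, so no letters are in capitals. The full element was in none of the 12 windows and in 0.439% of all 33469 RefSeq rat windows. AGAACA was in a window of Bhlhe40 and 1 of Clock, beside 20.7% of all windows. The absence of these letters says nothing about sites elsewhere in the genes.

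Among the D-box regulators, Nfil3 was thus the 1 called. Dbp encodes the albumin D-box binding protein, an activator at the same sequences. Its signals (1387874_at) were 185, 174, 149 and 115 in control and 94.4, 129.8, 74.9 and 52.6 with dexamethasone. The groups overlapped through dexamethasone replicate 2 alone, which was above control replicate 4, and the other 3 dexamethasone arrays were below every control array. The means were 156 ± 31.2 and 87.9 ± 32.7 (SD, n = 4 each). The log2 change was -0.88 (SE 0.29, 95% confidence interval -1.51 to -0.25), with an unadjusted p of 0.0104 and an adjusted p of 0.152 (limma; exact permutation test, two-sided p = 0.0571). Dbp was therefore not called, although it passed when replicates 1 and 2 were blocked apart from 3 and 4 (adjusted p = 0.0393, limma). Within the sets the difference was -0.70 and -1.06. Its dexamethasone mean was under the filter of 100, so Dbp was tested through its control arrays, and with no filter its adjusted p was 0.296 (limma). Dbp was above the level of silent genes on 1 control array and no dexamethasone array, so most of its signals lie where silent genes also lie.

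Tef, the thyrotroph embryonic factor and another D-box activator, was weak throughout. Its probe set (1369919_at) ranged from 10.3 to 39.2 over the 8 arrays, under the level of silent genes on each, with some values under the floor of 16. Its change in the fit over all probe sets was 0.65 (adjusted p = 0.436, limma), from signals that silent genes also reach.

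A D-box (TTATGTAA or TTACGTAA, either strand) was found in 1 of the 12 windows, that of Per2, with the first form in 0.893% and the second in 0.120% of all windows. Per2 is shown because its window holds a D-box and an E-prime box (CACGTT, either strand) together. Capitals mark the match in each line, the D-box at bases -192 to -185 and the E-prime box at -62 to -57 from the start.
Per2 promoter, chr9:99497158-99497205, minus strand: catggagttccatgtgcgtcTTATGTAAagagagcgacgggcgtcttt
Per2 promoter, chr9:99497030-99497075, minus strand: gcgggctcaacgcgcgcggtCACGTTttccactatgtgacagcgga

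Per2, another period gene, was not called. Its signals (1368303_at) were 254, 265, 262 and 231 in control and 240.1, 244, 265 and 169 with dexamethasone. The values overlapped, with dexamethasone replicate 4 below all others. On the log2 scale they differed by -0.16 (SE 0.16, 95% interval -0.52 to 0.20; limma adjusted p = 0.696). Within each array the log2 ratio of Per1 to Per2, relative to its control mean, was -0.29 to 0.44 in control and 1.36 to 2.00 with dexamethasone, without overlap. The mean ratio differed by 1.78 between the groups, with the control ratios resting on Per1 signals under the level of silent genes.

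This ratio and 3 others were chosen after the values had been seen, and no test is given for them. Per1 and Nfil3 were the clock genes whose groups already lay apart, so a separation of their ratios is not further evidence. Nfil3 to Dbp, a repressor over an activator of the same boxes, differed by 1.83 on the log2 scale, at -0.32 to 0.57 around its control mean in control and 1.33 to 2.39 after treatment. Its size is not exact, since Dbp was under the level of silent genes on 3 control and all 4 dexamethasone arrays. Nfil3 to Nr1d2 differed by 1.21 without overlap. Bmal1 to Clock differed by 0.04, and its groups overlapped.

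**Figure D3:**
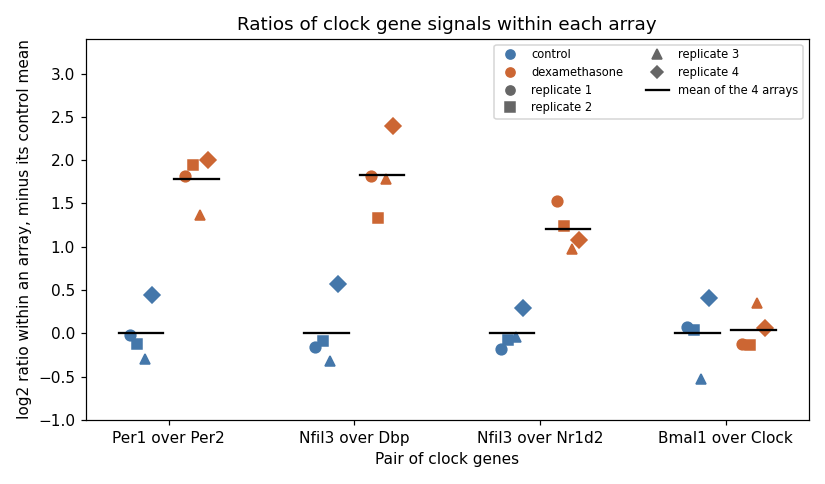
Log2 ratio of 2 clock gene signals on the same array, minus the mean of that ratio in control, with blue points for control, orange for dexamethasone, marker shape for replicate and a bar at the mean of 4 arrays. Per1 over Per2, Nfil3 over Dbp and Nfil3 over Nr1d2 lie apart between the groups by 1.78, 1.83 and 1.21 on average, and Bmal1 over Clock overlaps. The ratios were chosen after the values had been seen, and Per1 and Nfil3 lay apart by themselves.

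Clock and Bmal1, which encode the activators of the loop, were not called. The brightest Clock probe set (1390199_at) had signals of 365, 332, 304 and 339 in control and 477, 391, 348 and 436 with dexamethasone. Of the treated arrays, 3 were above every control array and replicate 3 was not. The groups differed by 0.30 on the log2 scale (SE 0.14, 95% interval 0.00 to 0.59), with an unadjusted p of 0.0499 and an adjusted p of 0.31 (limma). A second Clock probe set (1389456_at), at 130.2 to 183 over the 8 arrays, had a change of 0.09 (adjusted p = 0.854, limma), a smaller estimate with an interval of -0.30 to 0.48. That probe set was above the level of silent genes on only 1 control and 1 dexamethasone array. The remaining Clock probe set (1369168_a_at) read 24.1 to 66.8, under the level of silent genes on every array. Bmal1 (1370510_a_at) had signals of 288, 255, 158 and 338 in control and 328, 267, 331 and 339.7 with dexamethasone. Control replicate 3 stood below all others, and the groups overlapped. On the log2 scale the difference was 0.33 (SE 0.21, 95% interval -0.13 to 0.80; limma adjusted p = 0.498), and without control replicate 3 it was 0.11.

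Nr1d2 (REV-ERB beta), a nuclear receptor that represses Bmal1, was bright and not called. The signals of 1390430_at were 677, 619, 441 and 498 in control and 415, 496, 471 and 470.4 with dexamethasone. Those of 1370541_at were 345, 406, 285 and 250.2 in control and 229, 254, 275 and 275 with dexamethasone. In both probe sets the 2 highest arrays were control replicates 1 and 2, and the other control arrays lay among or near the treated ones. The log2 changes were -0.25 (95% confidence interval -0.58 to 0.07, adjusted p = 0.458) and -0.29 (95% confidence interval -0.66 to 0.07, adjusted p = 0.431; limma). Within replicates 1 and 2 they were -0.51 and -0.63, and within replicates 3 and 4 they were 0.01 and 0.04; the difference between the array sets was not tested. The remaining probe set (1370540_at) read 3.96 to 20.9, mostly under the floor. Nr1d1 (REV-ERB alpha), the related repressor, read 91.6, 82.1, 87.9 and 80.6 in control and 95.8, 120.2, 73.1 and 64.9 with dexamethasone, under the level of silent genes on every array. Its change in the fit over all probe sets was 0.01 (95% confidence interval -0.48 to 0.50, limma).

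The Bmal1 window is shown because it was the one that matched the element bound by REV-ERB and ROR proteins. That REV-ERB and ROR element, searched by its consensus on both strands, was found at bases -20 to -10 from the start in Bmal1, in none of the other 11 windows and in 0.356% of all windows; capitals mark it.
Bmal1 promoter, chr1:176766288-176766338, plus strand: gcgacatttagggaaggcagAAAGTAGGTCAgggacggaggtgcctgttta

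Bhlhe40 (DEC1), a repressor that competes with CLOCK and BMAL1 for E-boxes, had signals of 350.4, 426, 260.4 and 400.4 in control and 292, 414, 402 and 558 with dexamethasone. The groups overlapped widely, and the highest array was dexamethasone replicate 4. The difference was 0.20 on the log2 scale (SE 0.21, 95% interval -0.25 to 0.65; limma adjusted p = 0.697), at -0.15 in replicates 1 and 2 and 0.55 in replicates 3 and 4.

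The E-box itself (CACGTG, the same on both strands) was in windows of 3 of the 10 genes, Bhlhe40, Tef and Nr1d1, and in 6.42% of all windows. The E-prime box was in those of Per2 and Nr1d1, beside 4.83% of all windows. The E-box windows of the 3 genes are shown, with the match in capitals, because CLOCK and BMAL1 bind that box. The last line is instead the E-prime box of Nr1d1, read on the other strand as AACGTG. The E-prime box of Per2 was shown above. Of the 3 genes with an E-box, only Bhlhe40 was tested, and it was not called.
Bhlhe40 promoter, chr4:143174210-143174255, plus strand: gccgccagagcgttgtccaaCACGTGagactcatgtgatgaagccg
Tef promoter, chr7:115206609-115206654, plus strand: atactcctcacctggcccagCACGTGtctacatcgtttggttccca
Nr1d1 promoter, chr10:84229620-84229665, minus strand: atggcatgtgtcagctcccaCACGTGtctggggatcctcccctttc
Nr1d1 promoter, chr10:84231961-84232006, minus strand: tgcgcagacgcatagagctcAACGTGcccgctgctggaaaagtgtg

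Of the 10 tested clock gene probe sets, 7 had the same sign of change in both array sets and 3 did not, those of Bhlhe40 and the 2 of Nr1d2. Per1, Nfil3 and Dbp were among the 7. These 3 were also the tested clock probe sets whose changes exceeded 0.38 on the log2 scale, the 1.3-fold limit, by the median of the 16 ratios of a treated over a control array. By that measure, which has no test, 7.35% of all probe sets were past the limit upwards and 7.06% downwards.

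**Figure D4:**
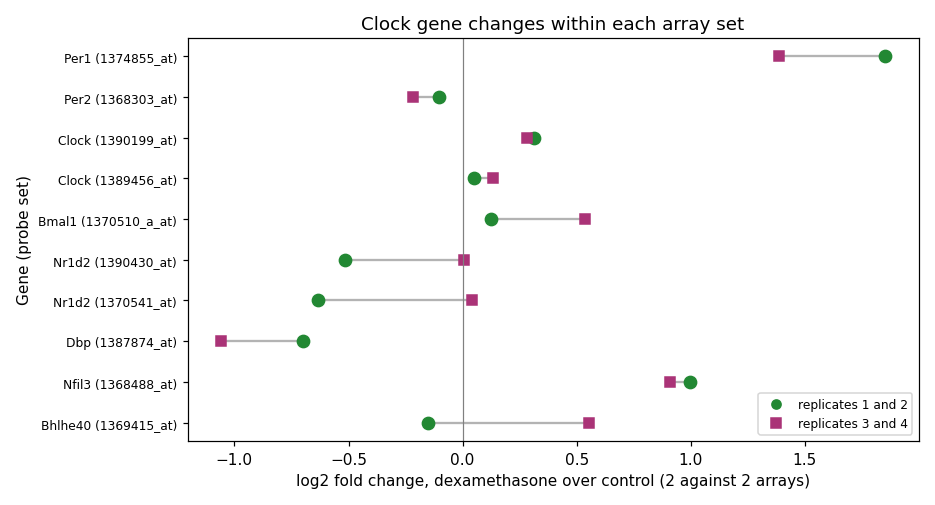
Log2 fold change (dexamethasone over control) of each tested clock gene probe set within replicates 1 and 2 (green circles) and within replicates 3 and 4 (purple squares), each 2 arrays against 2. Per1 (1.85 and 1.39), Nfil3 (1.00 and 0.91) and Dbp (-0.70 and -1.06) keep their sides, while Bhlhe40 and both Nr1d2 probe sets cross 0 or reach it.

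Further genes of the clock, taken as lists, were not called. Of 13 other clock factors (such as cryptochromes, RORs and HLF), 7 had probe sets in the annotation, and 5 probe sets were tested with 0 higher, 0 lower and 0 at an unadjusted p under 0.05 (limma). Their median change was -0.04. The smallest p belonged to Cry2, a cryptochrome repressor, at -0.42 (SE 0.20, unadjusted p = 0.0616, adjusted p = 0.345), followed by Hlf, another D-box activator, at 0.18 (adjusted p = 0.73, limma). The Hlf probe set was under the level of silent genes on every array. Cry1 was not analysed here. Per3 read under the floor of 16 on average in both groups.

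A list of kinases, phosphatases and ubiquitin ligases that act on clock proteins also held Usp2, Sfpq and Nono, which are of other classes. Of this list 29 probe sets of 17 genes were tested, and 0 were higher or lower, beside 1.88% and 0.810% of all probe sets tested. At an unadjusted p under 0.05 there was 1, beside 16.1% of all. The median change of the 29 was -0.02. The smallest p values were those of Btrc, a ubiquitin ligase subunit for period proteins, at 0.37 (adjusted p = 0.258), and of 1 Huwe1 probe set at -0.75 (adjusted p = 0.339, limma). The second probe set of each gave 0.07 for Btrc and 0.01 for Huwe1. The Huwe1 probe set at -0.75 was above the level of silent genes on only 1 array. The casein kinase genes Csnk1d and Csnk1a1, whose products phosphorylate period proteins, had 7 tested probe sets with changes from -0.12 to 0.15. Both ends of that range came from probe sets under the level of silent genes on every array.

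Among clock output genes 9 probe sets of 7 genes were tested, and 0 were higher or lower, with 2 at an unadjusted p under 0.05, a measure that 16.1% of all probe sets met. Both were of Cdkn1a, the cyclin-dependent kinase inhibitor p21, at -0.97 (SE 0.24, adjusted p = 0.0532) and -0.44 (SE 0.13, adjusted p = 0.118; limma). Wee1, a cell cycle kinase under E-box control, had a change of 0.02. Nampt, the rate-limiting enzyme of NAD salvage, had a change of 0.34 (adjusted p = 0.607, limma).

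**Figure D5:**
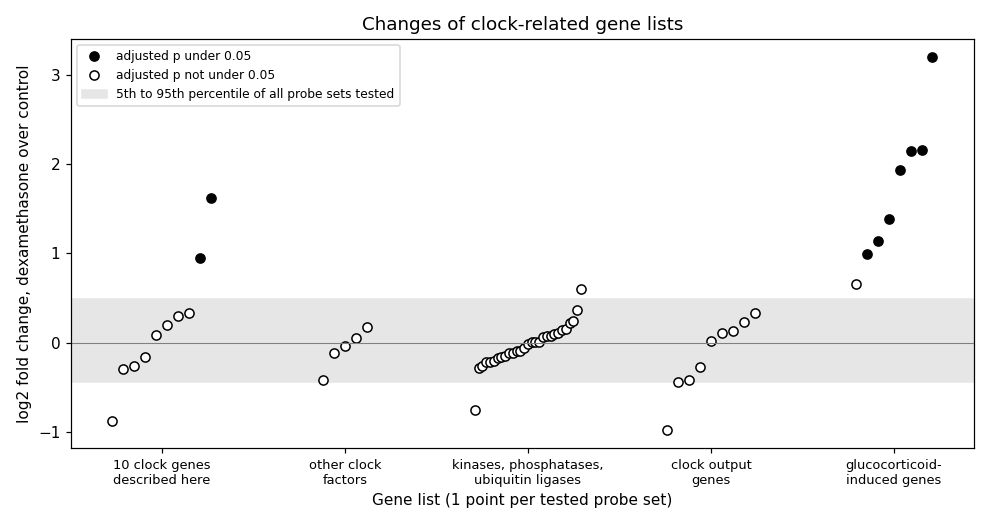
Log2 fold change (dexamethasone over control) of each tested probe set in the clock genes described here, 3 related lists and the glucocorticoid-induced genes, filled where the adjusted p was under 0.05. The grey band holds the 5th to 95th percentile of all probe sets tested, -0.44 to 0.50; 2 clock probe sets and 7 of 8 glucocorticoid-induced ones are filled, and 0 of the related lists are.

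The genes whose profile over the 8 arrays was most like each called clock gene were found by the root mean square difference of centred log2 signals among 8697 named probe sets. For Nfil3 they were Celf2, an RNA-binding protein (0.10), Vmp1, a membrane protein of autophagy (0.12), and B4galt5, a galactosyltransferase (0.13), with changes of 0.82, 0.78 and 0.89. For Per1 they were Sulf2, an extracellular heparan sulfate sulfatase (0.18), Akap12, a scaffold for protein kinase A (0.21), and Gpd1l1 (0.22), with changes of 1.71, 1.48 and 1.45. The step between the groups is part of each profile, so changes close to those of Per1 and Nfil3 follow from the selection. The root mean square differences are not scaled to the size of the change, which was larger for Per1. They therefore do not show which of the 2 profiles was matched better.

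Markers of the labelled tissue were present, with 9 of 9 epithelial genes above the level of silent genes on all 8 arrays. Of these Krt18, a keratin, was called lower with dexamethasone, at 9507 to 13057 in control and 7138 to 7925 with treatment. Of 8 fibroblast genes 4 were above that level on all 8 arrays (Col1a1, Col1a2, Col3a1 and Postn), while Dcn, Lum, Pdgfra and Thy1 were above it on none; the 8 genes together had a summed signal of 7129 to 9796 in control and 5142 to 9544 after treatment. The summed endothelial signal was 1617 to 2006 in control and 3316 to 3998 after treatment, of which Kdr made up 492 to 844 and 2528 to 3028, while Pecam1 and Tie1 were above the level on none. Of that list Kdr was called higher and 1 Flt1 probe set lower, the latter at 168 to 197 in control and 19.3 to 85.8 after treatment. Macrophage markers summed to 928 to 1520.4 in control and 1193 to 4553 after treatment, with Ptprc, Cd68 and C1qb above the level on none. Cd14, at 168 to 338 in control and 379 to 782 after treatment, and 1 Aif1 probe set were above it on 7 arrays each. Lyz2 ran from 88.5 to 433 in control and from 48.8 to 3415 after treatment. Of 5 tested macrophage probe sets 0 were called. Cd14 and Lyz2 had log2 changes of 0.96 and 0.61, and Cd74, Csf1r and Aif1 of -0.18, -0.15 and -0.09. Neuronal and Schwann cell markers (838 to 1219.8 and 852 to 1147) and melanocyte markers (168 to 217 and 167 to 179.7) overlapped between the groups. The part of these cells in the Per1 and Nfil3 changes was not tested.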

How the data were processed

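RNA of 4 control and 4 dexamethasone-treated SCCD cultures was measured on Affymetrix rat 230A arrays, 1 per sample, after 2 rounds of in vitro transcription. The deposited values are signal intensities on a linear scale, 1 per probe set, which the authors made with the Affymetrix statistical algorithms and which the labels describe as scaled to a target of 500. The software version was not given in the sources used here, and no detection calls or probe-level values were used. Of 15923 probe sets, 57 controls were left out. The annotation gives 1 gene to 12783 of the rest, several to 312 and none to 2771. Because the trimmed means differed between arrays, each array was multiplied by 1 factor (1.00 to 2.48) to a 2% trimmed mean of 500. Lower signals were raised to a floor of 16, log2 was taken, and probe sets averaging 100 or more were tested in R 4.3.3 with limma 3.58.1 (lmFit, eBayes with trend, two-sided, Benjamini-Hochberg adjustment at 0.05), without a block. The script was tested on simulated data. For single clock genes an exact permutation test over the 8 arrays was added. The number of arrays limits the precision. The plan, which set the rescaling, alternatives and lists, was written with earlier results of these data known, as were the choices of the 10 genes, the marker lists and the array set comparison, so none of these lists is independent of the data.

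Named in the text are all 10 clock genes, with every array for those called or with an unadjusted p under 0.05 and others the account turns on, the called genes or else the 2 smallest p of each related clock list, the 3 closest profiles of each called gene, and Sgk1, Fkbp5 and Tsc22d3. Csnk1d, Csnk1a1, Wee1, Nampt, Per3, Nr3c1, Cry1, Krt18 and the other marker genes were named after their values had been seen. The marker lists were of epithelium, fibroblasts, endothelium, macrophages, neurons and Schwann cells, and melanocytes. The level of silent genes is the 95th percentile over 45 probe sets of 43 genes of other tissues on the same array, of which 1 gene was itself above it on all 8 arrays. The alternatives were the signals as deposited, quantile normalization, median centring, no filter, a filter at 250, floors of 100 and 1, a robust fit, a fit without the trend, blocks for the replicate number or the array set, each array set alone, the beta-actin ratio as a covariate, leaving out each array, and the median of 16 log2 ratios at the 1.3-fold limit.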

Additional observations from a re-analysis of the deposited data

Results flagged for a closer look

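In 4 of the 28 groups of 4 arrays examined, 1 array lay far from the other 3 by Dixon's ratio of the gap to the whole range (critical value 0.829). Chance alone gives about 1 such group in 20. In Nfil3, control replicate 3 read 242 against 332 for the next control array, a ratio of 0.89. In Bmal1, dexamethasone replicate 2 read 267 against 328 for the next, a ratio of 0.849. In the dim Nr1d2 probe set 1370540_at the ratio was 1.00 in both groups, where control replicate 1 (20.9) and dexamethasone replicate 2 (20.8) were the arrays above the floor of 16 and the other 6 were set to it. Leaving out the Nfil3 or the Bmal1 array changed neither call.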

How the results depend on the processing

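Over the 10 tested clock gene probe sets, 202 of 216 comparisons with an alternative kept the direction and the side of the threshold, 6 lost a call, 2 gained one and 6 turned in sign. Most of these comparisons are of the 8 probe sets not called, which an alternative with less power leaves uncalled. All 6 lost calls were of the 2 called genes, with Per1 kept in 18 of 21 and Nfil3 in 19 of 22. The number of clock probe sets called higher, 2, became 0 with the signals as deposited, 0 in replicates 3 and 4 alone, 0 with the beta-actin covariate and 1 with the filter at 250, which Per1 did not pass. The number called lower, 0, became 1 (Dbp) with the replicate block, the array set block and the untested 1.3-fold limit. The turned signs, none called, were Bhlhe40 in replicates 1 and 2 (-0.15) and with the covariate (-0.26), Bmal1 with the covariate (-0.046), Per2 with the signals as deposited (0.0043), and Nr1d2 in replicates 3 and 4 (1370541_at 0.043, 1390430_at 0.0062). The causes were not tested. Over all probe sets the counts, 195 higher and 84 lower, became 34 and 4 with the signals as deposited, 81 and 21 with no filter, 344 and 234 with the array set block, 19 and 2 in replicates 3 and 4 alone, 57 and 8 with the covariate, and 154 lower in replicates 1 and 2 alone. Leaving out 1 array gave 128 to 192 higher and 49 to 83 lower, with the low ends without dexamethasone replicate 2 and without control replicate 2 or dexamethasone replicate 1. Same-numbered arrays deviated together with correlations of 0.35, 0.25, 0.03 and 0.41 across probe sets, against -0.03 to 0.43 for unlike numbers of the same array set. The numbers were not taken to pair the samples, because a correlation over 0.1 had been required of every pair. With the replicate block 308 probe sets were higher and 176 lower, and Dbp passed (adjusted p = 0.0458, limma). The signals of Per1 in control, Dbp, Nr1d1, Tef, Clock 1389456_at and 1369168_a_at, and Nr1d2 1370540_at lay largely within the range of silent genes. This limits what their sizes can show.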
